A study of Mus musculus with 9 samples.

Results

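Coq2, Rftn1, Aopep and Mcf2l are 4 mouse genes that each held 3 or more strong regions of open chromatin seen in multipotent progenitors (MPPs) and not in LT-HSCs, the long-term stem cells of the blood. Such genes were 7 of the 16452 protein-coding genes with an assigned region (0.0425%), and the other three were Runx1, Smad3 and Zcchc24. The assay was ATAC-seq: Tn5 transposase inserts adapters where DNA is accessible, so peaks of inserts mark open chromatin. Both cell types were sorted from C57BL/6 bone marrow, from animals without RXRα and RXRβ (genotype RXRa/RXRb-KO, here KO) or from wild-type animals (WT). The 9 libraries were MPP KO 1 and 2, MPP WT 1 and 2, LT-HSC KO 1, 2 and 4, and LT-HSC WT 2 and 3. The cells came from pooled lineage-negative marrow, and the labels do not state the age of the mice, how the receptor genes were deleted, or whether replicates came from separate pools. A p-value here thus reflects the spread among these libraries alone, and that spread may be technical.

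Each library has its own deposited list of peaks. Overlapping peaks of the 9 lists (1 bp or more in common) were joined into regions. A region was given to the protein-coding gene that holds its midpoint, or else to the nearest gene end within 100 kb. Where several genes held the midpoint, the region went to the gene with the nearest end. An MPP-only region had a peak in all 4 MPP lists and in none of the 5 LT-HSC lists. It was called strong when it was also among the 22690 strongest peaks by −log10 q-value of every MPP list, 22690 being the length of the shortest of the 9 lists. The genes were chosen by these peak calls and ranks, so every difference between MPPs and LT-HSCs below is a description without a test. The 4 genes had 124 regions: 102 were seen in 2 or more lists and were analysed, and 22 were seen in a single list. MPP-only regions numbered 32, of which 13 were strong.

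The products of the 4 genes have separate roles. Coq2 encodes the mitochondrial prenyltransferase that joins the isoprenoid tail to the ring of coenzyme Q, the lipid that carries electrons along the respiratory chain. Rftn1 encodes raftlin, a protein of lipid rafts known from antigen receptor signalling in B cells. Aopep encodes aminopeptidase O, a zinc-dependent enzyme that trims amino-terminal residues from peptides, and its annotated interval also holds the microRNA genes Mir23b, Mir27b and Mir24-1. Mcf2l encodes an exchange factor of the Dbl family, whose members act on the actin cytoskeleton. MPPs descend from LT-HSCs and divide more often, and open regions away from gene starts are often enhancers, which can act on a gene other than the nearest one.

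The lists held 78189 to 86353 peaks in the 4 MPP libraries and 22690 to 71586 in the 5 LT-HSC libraries, so list length moved with cell type, and its part in the MPP-only pattern was not tested. The library LT-HSC KO 4, with 71586 peaks, still lacked all 32 MPP-only regions, as the definition requires. Rxra, a deleted gene, had peaks in 17 and 18 of its 20 analysed regions in MPP KO 1 and 2, 16 and 16 in MPP WT 1 and 2, 0, 3 and 15 in LT-HSC KO 1, 2 and 4, and 11 and 4 in LT-HSC WT 2 and 3. The 2 analysed Rxrb regions were both held by every MPP library and by LT-HSC KO 4, and 1 of them by each other LT-HSC library. Peaks outside the deleted segments do not check the genotype. Flt3, which marks MPPs, had peaks in 12, 11, 12 and 11 of 13 regions in MPP KO 1, KO 2, WT 1 and WT 2, against 2, 4, 8, 6 and 4 in LT-HSC KO 1, KO 2, KO 4, WT 2 and WT 3. Slamf1, which marks LT-HSCs, had peaks in 4, 6, 4 and 5 of 7 regions in MPP KO 1, KO 2, WT 1 and WT 2, against 3, 3, 6, 4 and 2 in LT-HSC KO 1, KO 2, KO 4, WT 2 and WT 3, so its count did not set the cell types apart. Of these 7 regions 1 was held by all 5 LT-HSC lists and no MPP list. Summed over marker lists, MPP libraries held 34 to 37 of 41 regions of MPP markers and LT-HSC libraries 8 to 24. For LT-HSC markers MPP libraries held 56 to 64 of 91 and LT-HSC libraries 12 to 70. Of all analysed regions MPP libraries held 78.1% to 84.7% and LT-HSC libraries 22.7% to 65.5%. The marker counts were not tested against these shares. Markers of other cells were also open: MPP libraries held 7 or 8 of 8 T cell regions, 13 to 16 of 19 B cell, 24 to 27 of 28 mature myeloid, 7 or 8 of 9 erythroid and 49 to 59 of 64 stromal and endothelial regions. LT-HSC libraries held 1 of the T cell regions, 1 to 6 of the B cell, 3 to 13 of the myeloid, 4 to 8 of the erythroid and 5 to 36 of the stromal and endothelial regions. No library had a peak at Cd3g or Cd79a, and whether other cells contributed to the peaks below was not tested.

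The starts of the 4 genes were not among the MPP-only regions. The promoter windows are shown because they set the widely shared starts of Coq2 and Aopep against the MPP-only regions elsewhere in the same genes. Each runs from 250 bases before to 50 after an annotated start, as given in the RefSeq table of GRCm38.p6, the assembly whose chromosomes are those of mm10, and all 4 genes matched that table. Capitals mark matches, on either strand, to GGGCGG (the GC box bound by SP factors), GCGCATGC (the core bound by NRF1), TGACG (bound by CREB and ATF factors) and CCGGAAG (bound by ETS factors). The E-box CACGTG, the element AGGTCA (bound by RXR and its partners), the letters TGTGGT (bound by RUNX factors) and the AP-1 element TGANTCA were also searched on both strands and were not in these windows, which says only that those letters are not there.
Coq2 (chr5:100674207-100674506, minus strand): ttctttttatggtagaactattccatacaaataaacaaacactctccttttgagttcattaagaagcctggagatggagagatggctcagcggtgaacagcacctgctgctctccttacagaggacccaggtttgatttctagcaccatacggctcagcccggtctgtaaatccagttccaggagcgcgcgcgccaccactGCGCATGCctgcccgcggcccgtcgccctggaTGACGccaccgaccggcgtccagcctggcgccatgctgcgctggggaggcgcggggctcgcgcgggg
Aopep (chr13:62964643-62964942, plus strand): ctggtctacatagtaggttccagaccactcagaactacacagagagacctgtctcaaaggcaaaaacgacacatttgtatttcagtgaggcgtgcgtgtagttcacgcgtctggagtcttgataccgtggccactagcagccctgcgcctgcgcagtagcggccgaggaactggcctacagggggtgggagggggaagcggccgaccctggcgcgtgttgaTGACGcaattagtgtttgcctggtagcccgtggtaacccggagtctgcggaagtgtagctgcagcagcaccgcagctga
Rftn1 (chr17:50190448-50190747, minus strand): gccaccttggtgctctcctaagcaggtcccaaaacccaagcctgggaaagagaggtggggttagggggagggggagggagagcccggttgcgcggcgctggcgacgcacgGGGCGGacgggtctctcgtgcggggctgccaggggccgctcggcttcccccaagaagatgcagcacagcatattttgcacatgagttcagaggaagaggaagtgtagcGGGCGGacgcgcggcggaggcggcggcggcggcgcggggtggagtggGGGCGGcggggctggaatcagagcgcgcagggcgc
Mcf2l (chr8:12873556-12873855, plus strand): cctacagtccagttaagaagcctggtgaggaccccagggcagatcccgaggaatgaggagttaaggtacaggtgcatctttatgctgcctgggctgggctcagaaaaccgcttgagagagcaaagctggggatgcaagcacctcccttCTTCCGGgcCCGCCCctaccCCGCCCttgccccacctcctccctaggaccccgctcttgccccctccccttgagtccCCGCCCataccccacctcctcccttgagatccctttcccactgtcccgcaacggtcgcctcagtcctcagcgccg
The Coq2 window held 1 GCGCATGC and 1 TGACG, and the Aopep window 1 TGACG. The Rftn1 window held 3 GC boxes, and the Mcf2l window 3 GC boxes and 1 CCGGAAG. Among all 32851 promoter windows of the table, 35.7% held the GC box, 2.71% the NRF1 core, 20.8% the CREB and ATF letters, 8.86% the ETS letters, 7.15% the E-box, 16.3% the RXR element, 16.8% the RUNX letters and 7.81% the AP-1 element. No matches of 1 motif shared bases with another. The motifs were chosen with these sequences in view.

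Peaks over these starts were seen in both cell types, though at Rftn1 and Mcf2l in only part of the LT-HSC libraries. The Coq2 window and the Aopep window each overlapped a region with a peak in all 9 libraries, a pattern of 14.5% of analysed regions. The Rftn1 window overlapped a region with peaks in the 4 MPP libraries and in LT-HSC KO 4 and LT-HSC WT 2. The Mcf2l window overlapped a region with peaks in the 4 MPP libraries and in LT-HSC KO 2, KO 4 and WT 2. The table lists 5 further starts of Mcf2l, and of these the 1 at chr8:12949173-12949472 overlapped a region, which had a peak in LT-HSC KO 4 alone. None of the 32 MPP-only regions had its midpoint within 1 kb of a gene end, against 6.09% of all MPP-only regions and 16.5% of all analysed regions.

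**Figure D1:**
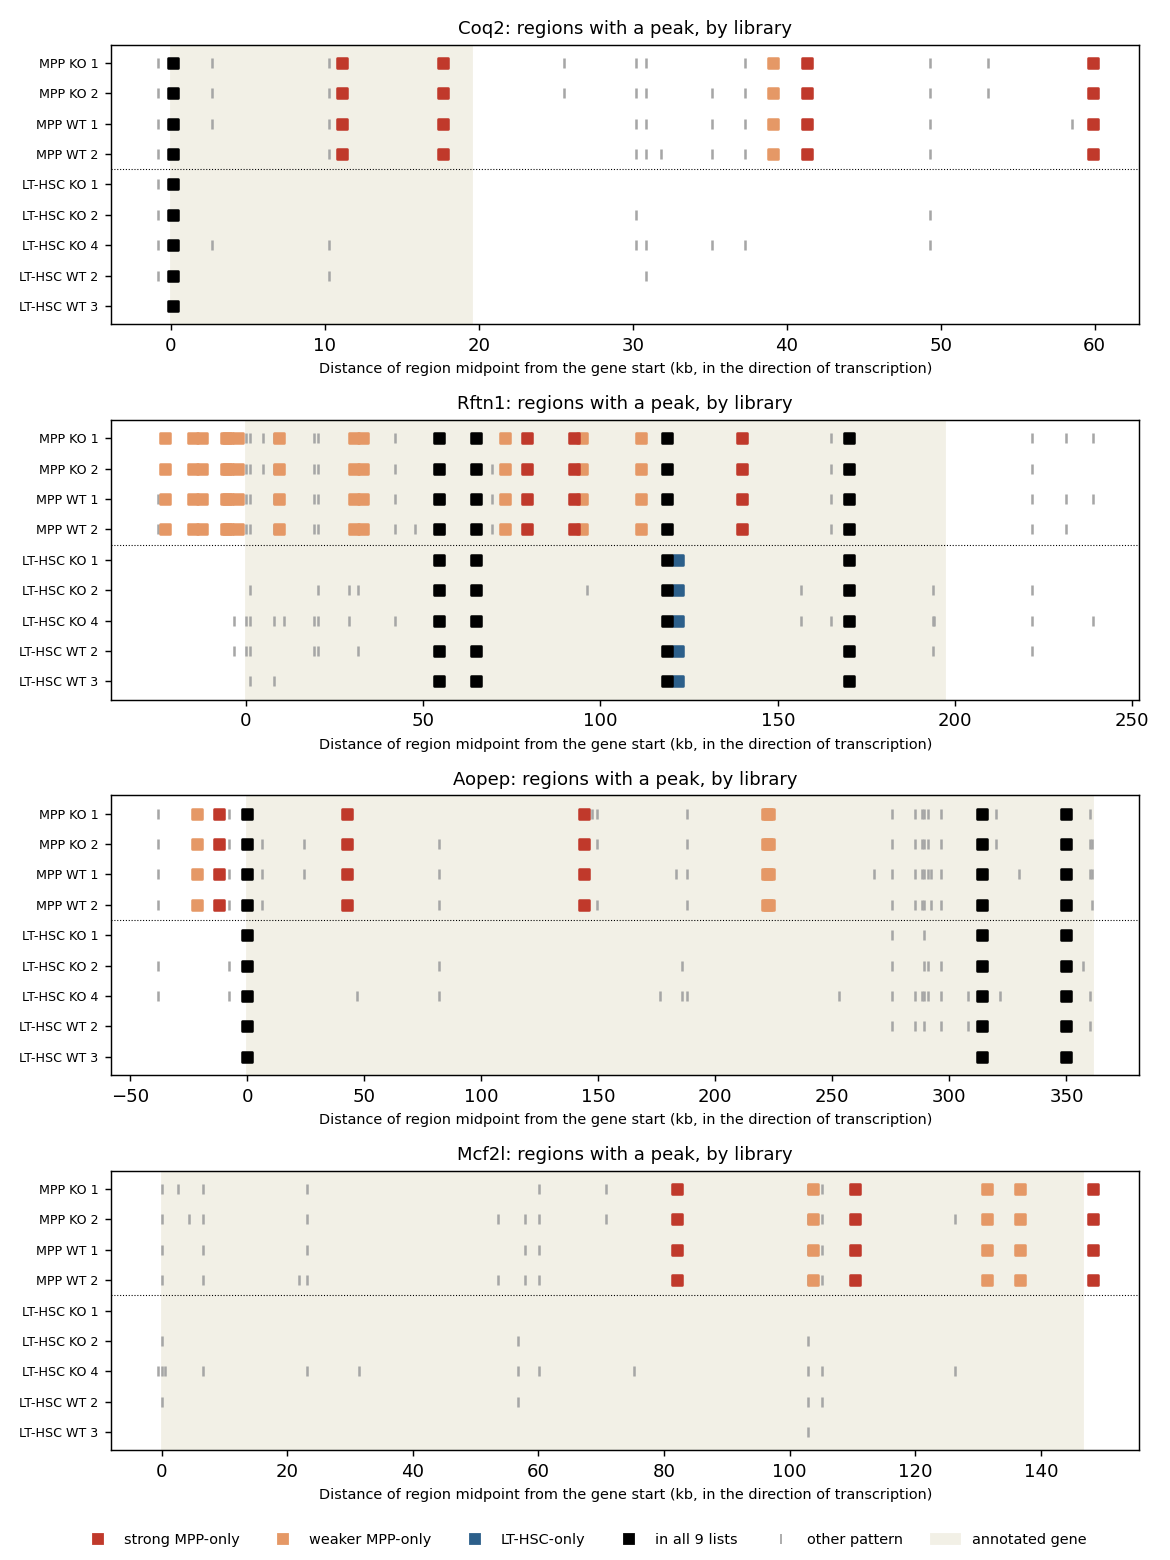
Each mark is a peak of 1 library (rows) in 1 merged region (horizontal position, kb from the gene start in the direction of transcription), and shading is the annotated gene. Strong and weaker MPP-only regions fill the 4 MPP rows and leave the 5 LT-HSC rows empty, and Coq2 has a strong pair inside the gene and another beyond its far end.

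Coq2 (gene 71883, mm10 chromosome 5, 100654723 to 100674288, minus strand) is the shortest of the 4 at 19.6 kb and held the most strong MPP-only regions, 4. It had 18 regions, 16 of them analysed, which is more than 93.7% of genes with a region had, while 45.4% of those genes were shorter than Coq2. MPP-only regions were 5 of the 16 (31.25%), against 17.3% of all analysed regions, and strong ones 4, against 1.06%. The rule used this contrast, so the excess is not a result.

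A pair of the 4 lay inside the gene, 11.1 and 17.7 kb from its start. The one at chr5:100662980-100663434 had fold enrichments, the authors' ratio of a peak over background in its own library, of 19.6 and 22.2 in MPP KO 1 and 2 and of 22.9 and 22.1 in MPP WT 1 and 2. The one at chr5:100656252-100656919 had 21.3 and 23.3 in MPP KO 1 and 2 and 23.9 and 21.1 in MPP WT 1 and 2. In no list did this pair rank below 9808 by −log10 q. The other pair lay beyond the far end of the gene, 21.8 kb from it at chr5:100632753-100633174 and 40.3 kb from it at chr5:100614076-100614748. Their fold enrichments were 15.1 and 15.8 in MPP KO 1 and 2 with 18.5 and 15.3 in MPP WT 1 and 2 for the nearer one. For the farther one they were 16.3 and 15.9 in MPP KO 1 and 2 and 20.1 and 16.5 in MPP WT 1 and 2. Its rank of 22039 in MPP KO 2 was the closest of the 13 strong regions to the limit of 22690.

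The farther Coq2 region lies almost midway between Coq2 and Plac8, 42.2 kb from Plac8, a gene known for expression in myeloid and progenitor cells. Plac8 itself had 13 analysed regions, 3 of them MPP-only and 1 strong. Hpse, which encodes the heparan sulfate cleaving enzyme heparanase, lies 16.3 kb from the nearest strong Coq2 region and had 4 MPP-only regions among 9, none strong. Cops4 (66.6 kb) and Helq (98.9 kb) also lie within 100 kb of a strong Coq2 region and had no MPP-only region among 4 and 2. Position alone does not tell which of these genes a region acts on.

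The number of Coq2 regions held varied widely among LT-HSC libraries. Of the 16 analysed regions, MPP KO 1 and 2 held 15 and 16 and MPP WT 1 and 2 held 14 and 13, whereas LT-HSC KO 1, 2 and 4 held 2, 4 and 9 and LT-HSC WT 2 and 3 held 4 and 1. The lowest MPP library was above the highest LT-HSC library, as at 53.4% of the 6520 genes with 5 or more analysed regions. The strong region 11.1 kb from the start had an LT-HSC KO 4 peak only 0.424 kb from its edge, the shortest such distance among the 13.

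Rftn1 (gene 76438, chromosome 17, 49993258 to 50190497, minus strand) had the most regions, 43 with 39 analysed, more than 99.8% of genes with a region had, and it was longer than 94.4% of them. MPP-only regions were 15 of the 39 (38.5%, against 17.3% of all analysed regions), and 3 of them were strong. The 3 strong regions all lay inside the gene, and 6 of the 12 weaker ones lay upstream, 2.12 to 22.8 kb before the start. No other protein-coding gene lies within 100 kb of a strong Rftn1 region.

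The strong Rftn1 region 92.4 kb from the start, chr17:50097731-50098368, had fold enrichments of 17.1 and 17.7 in MPP KO 1 and 2 and of 17.6 and 16.5 in MPP WT 1 and 2. The one at 79.2 kb, chr17:50111025-50111489, had 16.1 and 19.3 in MPP KO 1 and 2 and 19.3 and 17.9 in MPP WT 1 and 2. The one at 139.8 kb, chr17:50050416-50050904, had 17.8 and 17.1 in MPP KO 1 and 2 and 22.4 and 19.4 in MPP WT 1 and 2. At 92.4 and 79.2 kb the fold enrichments of KO and WT libraries overlapped, and at 139.8 kb both KO values were below both WT values.

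Rftn1 was the only one of the 4 genes with a region held by all 5 LT-HSC lists and no MPP list, a pattern of 0.24% of analysed regions. That region, chr17:50068300-50069045, lay inside the gene 121.8 kb from the start, between the strong MPP-only regions at 92.4 and 139.8 kb. Its fold enrichments were 6.40, 9.50 and 13.03 in LT-HSC KO 1, 2 and 4 and 9.87 and 7.24 in LT-HSC WT 2 and 3, and it was among the 22690 strongest peaks of each of these lists. With it, 8 of the 102 analysed regions had peaks in 2 or more LT-HSC lists and in no MPP list, beside 7.09% of all analysed regions. They were 5 of 39 at Rftn1, 2 of 30 at Aopep, 1 of 17 at Mcf2l and 0 of 16 at Coq2.

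Regions that all 9 libraries held also differed in rank along Rftn1. Ranks were taken by −log10 q among the 13908 regions held by all 9, so that each library ranks the same regions, as percentiles with 100 the strongest. The region 170.0 kb from the start, chr17:50020180-50020902, stood at percentiles 41.8 and 36.1 in MPP KO 1 and 2 and 15.3 and 23.8 in MPP WT 1 and 2, against 92.2, 93.6 and 96.6 in LT-HSC KO 1, 2 and 4 and 94.1 and 90.7 in LT-HSC WT 2 and 3. The region 118.8 kb from the start, chr17:50071342-50072017, is beside the LT-HSC-only region and ranked the other way. It stood at 45.7 and 48.7 in MPP KO 1 and 2 and 46.1 and 47.2 in MPP WT 1 and 2, against 1.36, 19.8 and 7.29 in LT-HSC KO 1, 2 and 4 and 9.83 and 15.2 in LT-HSC WT 2 and 3. The 2 cell types did not overlap at either region. Of all 13908 regions 15% had every MPP library below every LT-HSC library and 16.1% the opposite, so such separation was not rare. At 54.3 kb from the start the cell types overlapped, at percentiles 22.5 to 41.9 in MPP libraries and 33.5 to 80.4 in LT-HSC libraries. At 65.0 kb they did not, at 0.0288 to 2.44 in MPP libraries and 2.73 to 40.9 in LT-HSC libraries.

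**Figure D2:**
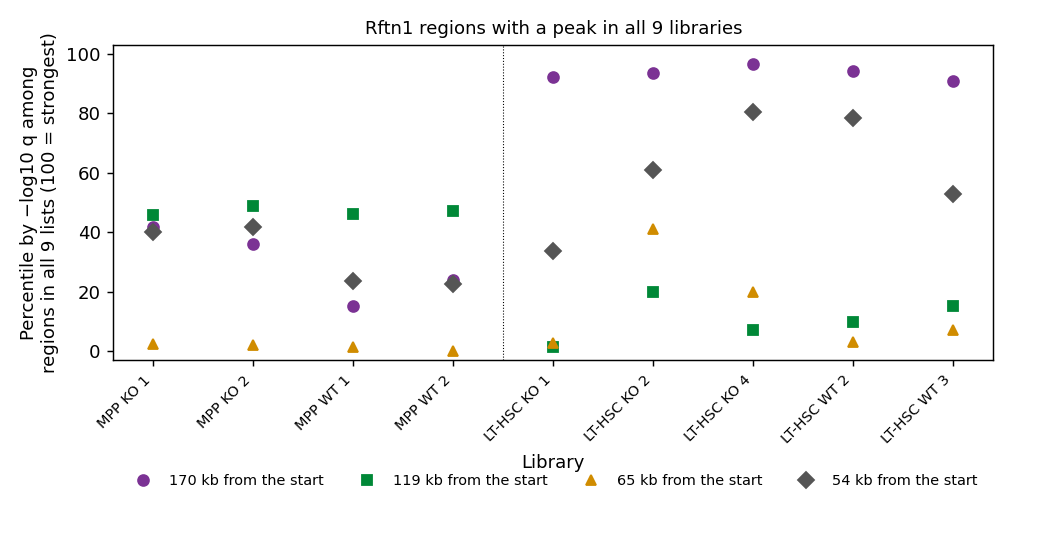
Percentile by −log10 q (vertical axis, 100 the strongest) of the 4 Rftn1 regions held by all 9 libraries, among all 13908 such regions, for each library (horizontal axis, MPP left and LT-HSC right of the dotted line). The region 170 kb from the start lies at 90.7 or above in LT-HSC and at 41.8 or below in MPP libraries, and the region at 119 kb at 45.7 or above in MPP and at 19.8 or below in LT-HSC libraries.

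Regions held by all 9 libraries were 4 of 39 at Rftn1, 1 of 16 at Coq2, 3 of 30 at Aopep and 0 of 17 at Mcf2l, beside 14.5% of all analysed regions. Of the 39 analysed Rftn1 regions, MPP KO 1 and 2 held 31 and 30 and MPP WT 1 and 2 held 33 and 32, against 5, 12 and 18 in LT-HSC KO 1, 2 and 4 and 13 and 7 in LT-HSC WT 2 and 3.

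Aopep (gene 72061, chromosome 13, 62964893 to 63326096, plus strand) is the longest of the 4 at 361.2 kb. It had 39 regions, 30 of them analysed, and 6 MPP-only regions (20%, near the 17.3% of all analysed regions), 3 of them strong. The strong region 143.9 kb into the gene, chr13:63108510-63109072, had fold enrichments of 16.6 and 19.4 in MPP KO 1 and 2 and of 19.9 and 20.3 in MPP WT 1 and 2. It was the most isolated of the 13, with the nearest LT-HSC peak 31.8 kb away in LT-HSC KO 4. The one at 42.8 kb, chr13:63007443-63007899, had 20.8 and 22.5 in MPP KO 1 and 2 and 20.3 and 21.3 in MPP WT 1 and 2. The one 12.1 kb upstream of the start, chr13:62952600-62953055, had the lowest values of the 13, 12.7 and 11.9 in MPP KO 1 and 2 and 13.7 and 12.5 in MPP WT 1 and 2.

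The far end of Aopep was open in both cell types. Regions at 314.1 and 349.8 kb from the start were held by all 9 libraries, and regions at 275.3 and 289.2 kb by all but LT-HSC WT 3. The microRNA genes Mir23b, Mir27b and Mir24-1 lie between 63300484 and 63301275, toward that end. No region overlapped them. The nearest, at chr13:63301972-63302176 and assigned to Fancc, was 0.697 kb from Mir24-1 and had a peak in 1 LT-HSC library. That region also lies inside the annotated interval of Aopep, so the Aopep counts leave out regions that went to an overlapping gene. The nearest MPP-only region was 31.4 kb from Mir24-1 and the nearest strong one 191.4 kb from Mir23b. Fbp1 and Fbp2, which encode fructose bisphosphatases, lie 64.5 and 94.4 kb from the upstream Aopep region and had no MPP-only region among 5 and 2.

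Of the 30 analysed Aopep regions, MPP KO 1 and 2 held 21 and 27 and MPP WT 1 and 2 held 25 and 23, against 5, 11 and 16 in LT-HSC KO 1, 2 and 4 and 9 and 3 in LT-HSC WT 2 and 3. The cell types did not overlap here either, the pattern of 53.4% of genes, and MPP KO 1 and KO 2 were farther apart than either was from the WT libraries between them.

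Mcf2l (gene 17207, chromosome 8, 12873806 to 13020502, plus strand) had 24 regions, 17 of them analysed, and none of these was held by all 9 libraries, since LT-HSC KO 1 had no peak at the gene. Of the 17, MPP KO 1 and 2 held 13 and 16 and MPP WT 1 and 2 held 13 and 14, against 0, 3 and 8 in LT-HSC KO 1, 2 and 4 and 4 and 1 in LT-HSC WT 2 and 3. MPP-only regions were 6 of the 17 (35.3%, against 17.3% of all analysed regions), all in the far part of the gene or just past it, at 82.1 kb from the start or more.

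The strong Mcf2l region 110.5 kb from the start, chr8:12984036-12984479, had fold enrichments of 21.7 and 25.0 in MPP KO 1 and 2 and of 24.7 and 24.1 in MPP WT 1 and 2. The one at 82.1 kb, chr8:12955418-12956380, is the widest of the 13 at 963 bp and had 18.9 and 17.9 in MPP KO 1 and 2 and 18.6 and 17.5 in MPP WT 1 and 2. The last, chr8:13021823-13022312, lies 1.57 kb past the gene end and had 17.3 and 18.1 in MPP KO 1 and 2 and 19.8 and 16.5 in MPP WT 1 and 2. It overlaps the annotated pseudogene Gm15352, and whether reads of a related copy map there was not tested.

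The region past the gene end lies 3.44 kb from F7, which encodes coagulation factor VII. F7 had 2 analysed regions, both MPP-only and 1 of them strong, held by all 4 MPP and no LT-HSC libraries. F10, which encodes coagulation factor X, had 2 MPP-only regions among 3, Proz 1 of 1, Pcid2 0 of 1 and Cul4a 1 of 5. Atp11a, which encodes a phospholipid flippase and lies on the other side of Mcf2l, had 4 of 14, none strong. MPP-only regions were thus also assigned to genes past the end of Mcf2l, F7 and F10 among them.

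The 13 strong regions are set here beside strong MPP-only regions in general, without a test. They had a median width of 489 bp, against 472 bp for all 1019 strong MPP-only regions and 394 bp for all analysed regions. Their summits in the 4 MPP libraries spanned a median of 28 bp and at most 90 bp, against a median of 26 bp for the 1019. The nearest LT-HSC peak, whose distance the choice of regions without LT-HSC peaks bears on, was a median of 6.01 kb away, against 5.01 kb, and for 10 of the 13 it was a peak of LT-HSC KO 4. Inside a gene were 9 of the 13, against 49.4% of the 1019. The 3 or 4 strong regions of a gene were spread over 48.9 kb at Coq2, 60.6 kb at Rftn1, 155.9 kb at Aopep and 66.4 kb at Mcf2l. The 19 weaker MPP-only regions had fold enrichments of 3.82 to 15.2 in MPP KO and 3.76 to 16.0 in MPP WT libraries. The strongest of them, 103.7 kb from the start of Mcf2l, ranked 28069 in its weakest list and had an LT-HSC peak 0.193 kb away.

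**Figure D3:**
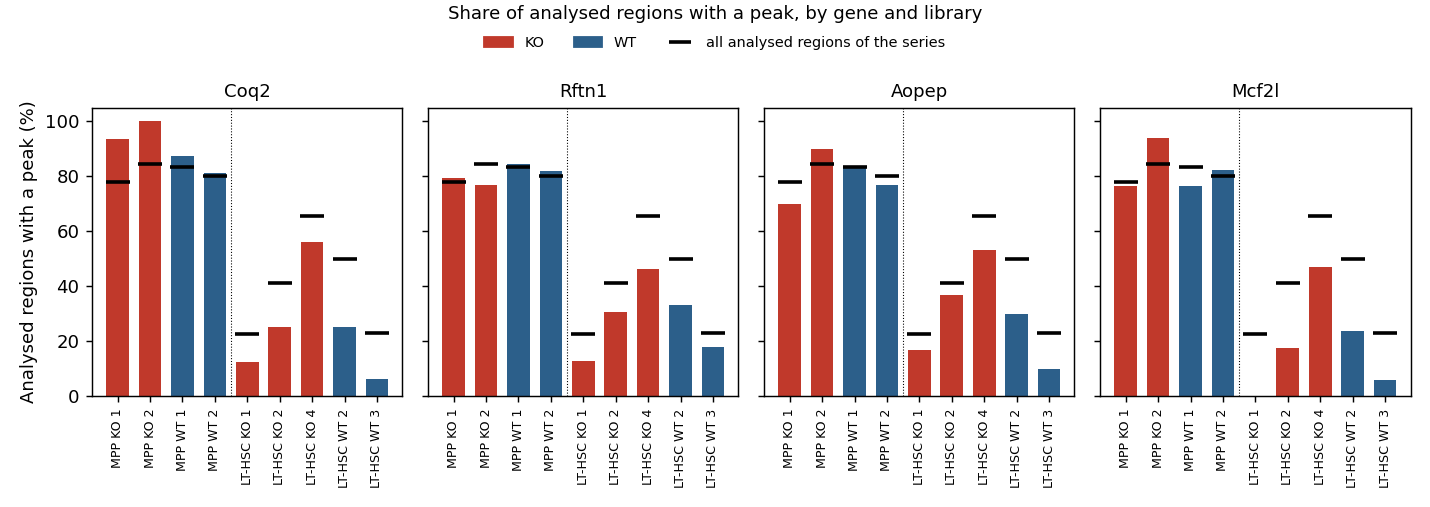
Bars give the share of each gene's analysed regions with a peak in each library (KO red, WT blue, MPP left and LT-HSC right of the dotted line), and black dashes the share of all 95786 analysed regions of the series. In each of the 5 LT-HSC libraries all 4 genes lie below the dash, and MPP bars lie from 70% to 100%.

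The share of regions held in LT-HSC libraries was below that of the whole series for each gene in each library. In LT-HSC KO 4 it was 56.2% at Coq2, 46.2% at Rftn1, 53.3% at Aopep and 47.1% at Mcf2l, against 65.5% of all analysed regions. In LT-HSC WT 2 it was 25.0%, 33.3%, 30.0% and 23.5% in the same order, against 50.0%. This contrast chose the genes, so it is a description. In lists cut to their 22690 strongest peaks, MPP-only regions numbered 4 of 7 analysed at Coq2, 5 of 12 at Rftn1, 4 of 9 at Aopep and 3 of 6 at Mcf2l. Strong regions were picked at this same limit, so the rule largely set these counts. The share of all regions at this cut was not computed.

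The second question of the study is what loss of the retinoid X receptors, nuclear receptors that pair with several partners, did to accessible chromatin, and the choice of the genes did not use it. Coq2 had the largest KO minus WT difference of the 4 genes after allowance for list length, and that difference did not pass adjustment over all genes. The measure is excess occupancy, in percentage points: from the share of a gene's regions that a library holds, the share that the library holds of all regions matched for number of libraries and class (within 1 kb of a gene end or not) is subtracted. The excesses of a gene sum to about 0 over the 9 libraries by construction, so only differences between groups carry information. Coq2 stood at 10.3 and 12.1 points in MPP KO 1 and 2 against 1.38 and −2.05 in MPP WT 1 and 2, and at 0.0224, −0.991 and 1.16 in LT-HSC KO 1, 2 and 4 against −16.0 and −5.93 in LT-HSC WT 2 and 3. KO libraries were above WT libraries without overlap in both cell types, as at 2.73% of the 6520 genes tested.

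The KO minus WT difference of Coq2, the mean of the differences in the 2 cell types, was 11.3 points, 11.5 in MPPs and 11.01 in LT-HSCs. Its two-sided exact permutation p within cell type was 0.0167, the smallest that the 60 labellings allow, and its Benjamini-Hochberg adjusted p over the 6520 genes with 5 or more analysed regions was 0.352. Of those genes 2.65% were higher and 6% lower in KO at unadjusted p under 0.05, together 8.65% (564 genes), and 0 passed after adjustment. The Coq2 difference was 4.404 points without MPP KO 2 (exact permutation p = 0.4), 5.59 without MPP KO 1 (p = 0.167) and 4.43 in lists of equal length (p = 0.533), where 7 regions were analysed. Without an expectation the share held differed by 14.1 points (exact permutation p = 0.15). Behind the MPP values are few regions, among them a pair at 25.5 and 53.1 kb from the Coq2 start that both KO and neither WT library held. No LT-HSC library held either.

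For the other 3 genes the genotype difference was within the spread of the libraries by the same test. Rftn1 differed by −3.63 points (exact permutation p = 0.267, adjusted p = 0.657), with 3.81 and −5.85 in MPP KO 1 and 2 against 3.22 and 4.46 in MPP WT 1 and 2. Aopep differed by 3.79 points (exact permutation p = 0.317, adjusted p = 0.690), with −0.523 and 11.5 in MPP KO against 5.88 and 3.33 in MPP WT. Mcf2l differed by 1.96 points (exact permutation p = 0.633, adjusted p = 0.859), with 4.09 and 13.7 in MPP KO against −2.34 and 7.85 in MPP WT. In LT-HSCs the KO and WT means were −2.09 and 0.315 at Rftn1, −1.38 and −8.05 at Aopep, and −5.53 and −3.34 at Mcf2l.

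**Figure D4:**
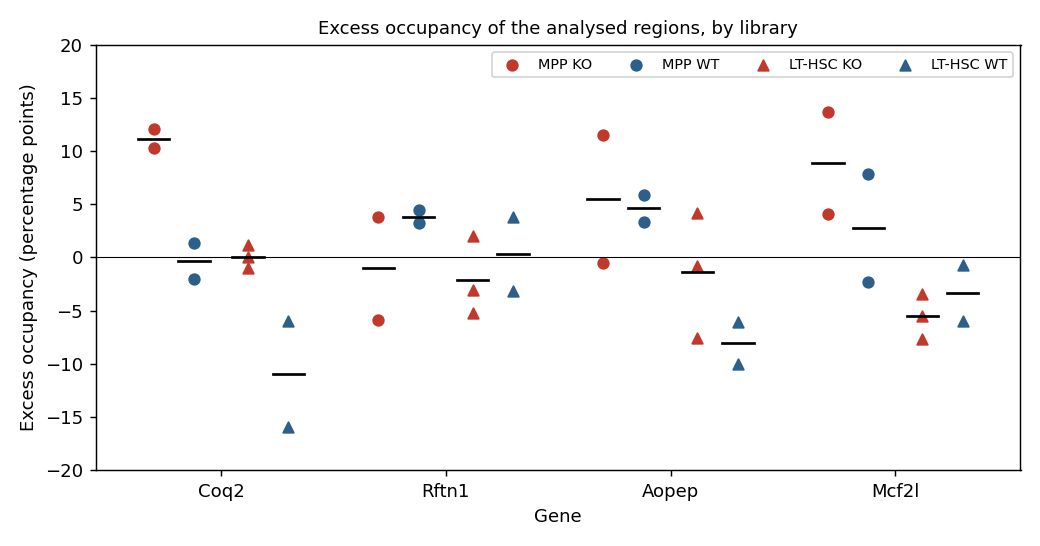
Excess occupancy in percentage points (vertical axis) of the analysed regions of each gene, 1 point per library, KO left of WT within each cell type and short lines for the group means. At Coq2 the KO points lie above the WT points in MPPs and in LT-HSCs, and at Rftn1, Aopep and Mcf2l the genotypes overlap in both cell types.

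By single region, presence could not show a genotype effect at these genes. None of the 124 regions could reach p under 0.05 in the stratified exact conditional test, an ability that 1.63% of analysed regions had. Of those 1565 regions 2.49% (39) had unadjusted p under 0.05 and 0 passed Benjamini-Hochberg adjustment. Both MPP KO lists and no other list held 5 of the 102 analysed regions, against 1.02% of all analysed regions. These were 2 at Coq2 and 1 each at Rftn1, Aopep and Mcf2l. Both MPP WT lists and no other list held 3, against 2.55%, 2 at Rftn1 and 1 at Aopep. These counts are too small to compare.

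Strength within MPPs gives a further view of genotype. Regions held by all 4 MPP lists, 64003 in the series, were ranked in each MPP library by −log10 q, as percentiles with 100 the strongest. At 9 of the 13 strong regions both KO libraries ranked below both WT libraries, and at 1 both ranked above. Among all 1019 strong MPP-only regions these shares were 64% and 6.58%, and among all 64003 regions 23.2% and 23.9%. The 13 thus stood near other strong MPP-only regions. The 4 genes had 69 regions held by all 4 MPP lists. Of these 69, both KO libraries ranked below both WT libraries at 19 and above them at 14, so the lean toward WT belongs to the strong regions. With 2 libraries a side the smallest p of an exact permutation test is 0.333, so no test was made. Of the 13, the Rftn1 region at 139.8 kb had the widest gap, at percentiles 74.3 and 68.3 in MPP KO 1 and 2 against 82.3 and 77.9 in MPP WT 1 and 2. The Coq2 region at 11.1 kb stood at 84.7 and 86.0 in MPP KO 1 and 2 against 89.8 and 89.1 in MPP WT 1 and 2. Among the 13, the Rftn1 region at 92.4 kb was the exception, at 83.9 and 86.5 in MPP KO 1 and 2 against 83.2 and 80.9 in MPP WT 1 and 2. Over the 13 the median KO minus WT difference was −4.07 percentile points.

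**Figure D5:**
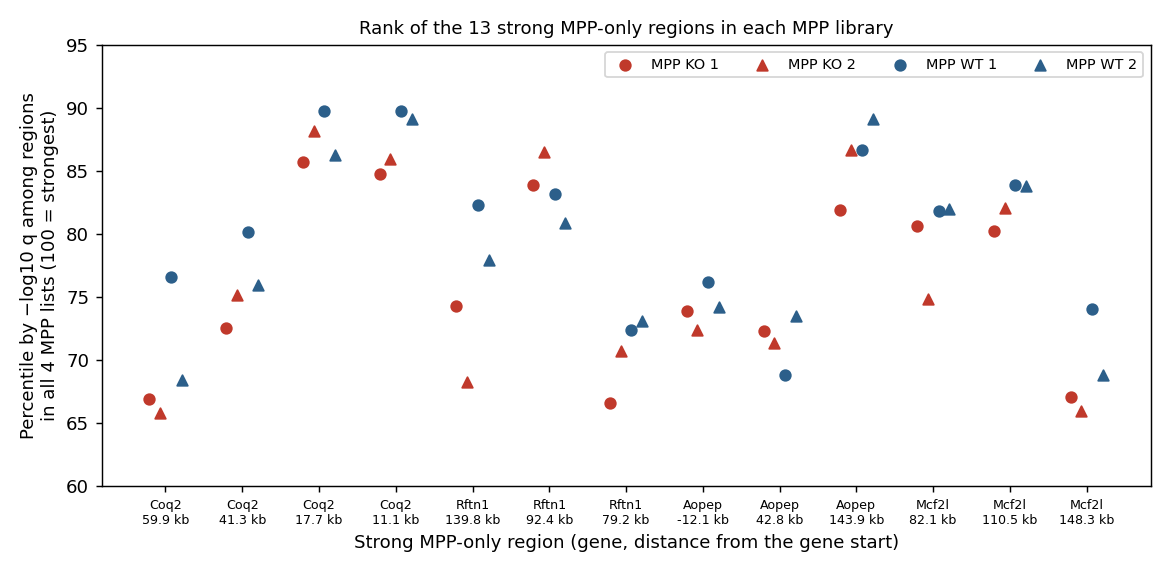
Percentile by −log10 q (vertical axis, from 60 to 95, 100 the strongest) of the 13 strong MPP-only regions among the 64003 regions held by all 4 MPP libraries, KO red and WT blue. At 9 of the 13 regions both KO points lie below both WT points, and at the Rftn1 region 92.4 kb from the start both lie above.

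The share of MPP-only regions in genes related to the 4 by function is given beside 17.3% of all analysed regions, without a test. Of the 12 other coenzyme Q genes, 5 had 8 MPP-only regions among 40 (20%), none strong, led by Coq7, the hydroxylase of a late step, Coq8b and Pdss2, which helps build the isoprenoid tail, with 2 each. Of 7 other raft genes with regions, 4 had 16 among 63 (25.4%), and 13 of those were at Pag1, which encodes an adaptor that recruits the kinase Csk. Of 9 other M1 aminopeptidase genes with regions, 6 had 12 among 63 (19.0%), with 3 each at Enpep, Lta4h, which encodes leukotriene A4 hydrolase, and Npepps. Of 27 other Dbl family genes, 20 had 108 among 538 (20.1%), 7 of them strong, led by Vav3 (12), Prex1 (10), Arhgef28 (9) and, with 8 each, Abr, Tiam1 and Tiam2. Mcf2 and Arhgef6 were not analysed here.

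By genotype, 0 genes of these lists passed adjustment over all genes. At unadjusted exact permutation p under 0.05 Coq2 was higher in KO, 1 of the 4 coenzyme Q genes tested, and 4 of the 26 Dbl family genes tested were lower, Prex1 (−8.69 points), Akap13 (−6.01), Vav2 (−9.20) and Sos1 (−8.59), against 6% of all genes lower. Akap13, Vav2 and Sos1 lie outside the rule for naming genes and were chosen after their values were seen. No gene among the 5 raft or 7 aminopeptidase genes tested reached it in either direction. The median KO minus WT difference was 6.30 points over the coenzyme Q genes, −1.83 over the raft genes, 1.01 over the aminopeptidases and −4.74 over the Dbl family, against −1.62 over all 6520 genes.

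Genes whose shares of regions held in the 9 libraries lay closest to those of each member, by root mean square difference over the libraries among the 6520 genes, were as follows. For Coq2 they were Tiam2 (5.20 percentage points), Plekha7 (5.35) and Mgat5 (5.36), for Rftn1 Rgs12 (3.82), Ubac2 (4.396) and Cacnb4 (4.42), for Aopep Odc1 (3.98), Shq1 (4.41) and Gucy2g (4.44), and for Mcf2l Carmil1 (4.23), Pcnx (4.91) and Gm30733 (5.07). None of these 12 had more than 1 strong MPP-only region. The genes share the 9 libraries and their list lengths, so likeness here is a description. Among the other genes with 3 strong regions, Runx1, a transcription factor required for the emergence of blood stem cells, had 14 MPP-only regions among 43, Smad3, a mediator of TGF-beta signals, 5 among 33, and Zcchc24 5 among 21.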

How the data were processed

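Open chromatin was measured by ATAC-seq in 9 libraries. Per the submitters' processing notes, the tools included cutadapt 1.7, Bowtie2, SAMtools 0.1.18 and MACS2 2.1.1, with mm10 coordinates. The authors deposited 1 peak list per library, which gives each peak a display score, a fold enrichment over background, and p and q values as −log10. The deposited score was not used. No read counts come with the lists, so depth behind each peak is unknown and no counting interval is given; the lists hold 22690 to 86353 peaks.

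Peaks sharing 1 bp were merged, and regions went to RefSeq GRCm38.p6 coding genes within 100 kb. Ranks used −log10 q within each list. Genotype was tested with an exact permutation of 60 labellings within cell type and Benjamini-Hochberg adjustment over 6520 genes, and by region with a stratified exact conditional test (Python 3.11.15, NumPy 2.4.6, SciPy 1.17.1, pandas 2.3.3). The gene test was tried on simulated data, and the region test on a few set patterns of presence. The genes and lists were chosen with earlier results of these data known. Named genes are the 4, other genes with 3 strong regions, coding genes within 100 kb of a strong region, the 3 closest in shares held, and up to 4 of each gene list by number of MPP-only regions; genes tied with the last of these were added after their values were seen. Alternatives were another merging, distance, q limit, strength limit and list length, all merged regions, a share without expectation, each library left out, and a replicate block. Sequences of MPP-only regions are not analysed here.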

Additional observations from a re-analysis of the deposited data

Results flagged for a closer look

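Rftn1 in MPP KO 2 stood apart from the other 3 MPP libraries in excess occupancy. Its excess occupancy there was −5.85 percentage points, against 3.81 in MPP KO 1 and 3.22 and 4.46 in MPP WT 1 and 2, a gap past the 95% critical value for 4 samples. Chance gives such a gap in about 5% of groups. In regions held the libraries were closer: MPP KO 2 held 30 of 39, MPP KO 1 31, and MPP WT 1 and 2 33 and 32. The list of MPP KO 2 was the longest, at 86353 peaks, and the share expected of each library is subtracted.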

How the results depend on the processing

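Of 180 values recomputed under 19 alternatives, 164 kept their direction and side of the threshold or stayed within 1.5 times, 9 counts moved further and 7 differences changed sign. In lists of equal length the KO minus WT difference was −2.88 points at Aopep, −16.0 at Mcf2l and 0.72 at Rftn1, and MPP-only regions numbered 5 at Rftn1 and 3 at Mcf2l. With −log10 q of at least 5 the Aopep difference was −0.40. Counting only regions inside the gene left 2 MPP-only regions at Coq2, both strong, and 9 at Rftn1. Strong regions then numbered 3 at Rftn1 but 2 at Aopep and 2 at Mcf2l, so Coq2, Aopep and Mcf2l fell below the 3 of the rule. With strength taken by fold enrichment Aopep also had 2. With strong taken as the 10000 strongest peaks, Coq2 had 2 strong regions and Rftn1, Aopep and Mcf2l 0. The cause was not tested. Leaving out 1 library gave 4.404 to 13.5 points at Coq2, −6.88 to −1.37 at Rftn1, 2.01 to 6.26 at Aopep and −4.69 to 3.39 at Mcf2l; the Mcf2l sign turned without MPP KO 2, MPP WT 1 (−1.57) or LT-HSC KO 4 (−0.18). Deviations from the group mean of same-numbered KO and WT libraries correlated at −0.0189 in MPPs and −0.113 in LT-HSCs. In a group of 2 libraries the deviations mirror each other, so these values cannot show whether the numbers pair libraries. With a replicate block over the 3 shared numbers the difference was 12.7 points at Coq2, −1.52 at Rftn1, 5.34 at Aopep and 4.23 at Mcf2l, with a smallest possible exact permutation p of 0.25. Peak lists without depth limit every count here.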
